A study of Mus musculus with 2 samples.

Results

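The mitochondrial ribosomal proteins were taken as the genes whose symbol is *Mrpl* or *Mrps* followed by a number and that had a probe set annotated to that symbol alone. There were 76 of them among the 18193 genes read in this way, 47 of the large subunit by symbol (*Mrpl*) and 29 of the small subunit (*Mrps*). RNA came from perigonadal WAT of female C57BL/6 mice, 30 weeks old and fed a HFD for 25 weeks. PeriA Tg mice were heterozygous for a human PeriA transgene driven by the aP2 promoter/enhancer, which acts in both white and brown fat, and the WT mice were their littermates without it. For each genotype, RNA of 3 mice was pooled and hybridised to 1 Affymetrix mouse array, so that the spread between mice is unknown and none of the differences given here has a test. Mice were fasted overnight before harvest.

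The mitochondrial ribosome makes the few proteins that mitochondrial DNA encodes, which are subunits of the respiratory chain and of ATP synthase. All of its proteins are encoded in the nucleus, translated in the cytosol and imported, whereas its ribosomal RNAs come from mitochondrial DNA. Some of the proteins descend from those of bacterial ribosomes, and others are found only in mitochondria. Brown adipocytes are rich in mitochondria and white adipocytes have few, so that the question put to these genes was whether their transcripts differed between WAT of Tg mice, where markers of brown adipocytes had higher signals, and WAT of WT mice, and whether the subunits differed from each other.

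To show sequence upstream of members over and under the thresholds, the 150 bases before the outermost annotated start were taken from RefSeq (GRCm38.p6). Shown are 5 genes, both *Mrps* genes with the highest values, both *Mrpl* genes over the threshold, and *Mrpl20*, which had the lowest value. *Mrpl33* (0.31) and *Mrpl39* (0.30) had the lowest values of the members over the threshold. Whether these bases regulate the gene in WAT was not tested. Capitals mark matches to the core of the site of NRF1, GCATGCGC, the site of ETS factors, CCGGAAG, and the site of YY1, AAGATGG, each searched on both strands. These factors are known to act on nuclear genes of mitochondrial proteins.
*Mrps16* (chr14:20393635-20393784, minus strand): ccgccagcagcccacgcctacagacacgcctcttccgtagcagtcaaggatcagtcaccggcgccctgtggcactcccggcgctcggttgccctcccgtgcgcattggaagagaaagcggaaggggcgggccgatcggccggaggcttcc
*Mrps24* (chr11:5707702-5707851, minus strand): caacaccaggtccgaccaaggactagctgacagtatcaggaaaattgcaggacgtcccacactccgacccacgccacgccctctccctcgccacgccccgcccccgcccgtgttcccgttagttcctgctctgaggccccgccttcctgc
*Mrpl33* (chr5:31613801-31613950, plus strand): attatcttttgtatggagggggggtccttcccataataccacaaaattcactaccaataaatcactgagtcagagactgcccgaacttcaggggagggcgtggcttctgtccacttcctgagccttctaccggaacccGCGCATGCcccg
*Mrpl39* (chr16:84735245-84735394, minus strand): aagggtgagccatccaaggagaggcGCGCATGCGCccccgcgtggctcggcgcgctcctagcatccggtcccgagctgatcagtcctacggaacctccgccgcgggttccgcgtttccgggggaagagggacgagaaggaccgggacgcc
*Mrpl20* (chr4:155802728-155802877, plus strand): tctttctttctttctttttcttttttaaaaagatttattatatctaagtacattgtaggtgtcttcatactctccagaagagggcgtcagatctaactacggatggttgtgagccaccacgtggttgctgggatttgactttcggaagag
Of these 5 stretches, those of *Mrpl33* and *Mrpl39* hold NRF1 core letters, and in *Mrpl39* the matches on the 2 strands overlap. The stretches of *Mrps16*, *Mrps24* and *Mrpl20* hold none of the 3 motifs. Those of *Mrps30* (0.45) and *Mrps15* (0.40), over the threshold but not shown, hold none either. A window of 300 bases, 250 before and 50 after the start, was found for 67 of the 76 members. The NRF1 core was in 11.9% of the members' windows and in 2.8% of those of all 27025 genes searched. The genes searched were not limited to those with a signal on these arrays and were not matched to the members in base content. The ETS motif was in 34.3% of the members' windows and 9.14% of all, and the YY1 motif in 19.4% and 6.46%. The median signal log ratio was 0.06 for the 35 members with any of the 3 motifs and 0.09 for the 32 without. For the NRF1 core it was 0.02 in the 8 members with it and 0.08 in the 59 without. For ETS it was 0.03 in 23 members and 0.10 in 44, and for YY1 0.07 in 13 and 0.07 in 54. Whether motif and value are related was not tested. A match of letters does not show that a factor binds there.

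The signal is the brightness of a probe set on a linear scale, and its signal log ratio is the log2 of Tg over WT, positive where Tg is the brighter array. Genes whose brighter array reached 98.2, the median over both arrays, were kept, which left 11587. All 76 members were kept, with signals from 196.2 to 8753, so that the filter removed none of them. Brightness depends on the probes, so that the order of signals among probe sets says nothing of transcript levels, and neither does the share of a gene in a sum of signals. A member is called over or under when its signal log ratio is past 0.3 or -0.3, the threshold of the methods.

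Of the 76 members, 66 lay between -0.3 and 0.3, 46 of them above 0 and 20 below. The median signal log ratio of the 76 members was 0.07, with quartiles of -0.01 and 0.21, beside a median of 0.02 and quartiles of -0.19 and 0.22 for all 11587 genes kept. A value above 0 was found in 54 members, or 71.1%, beside 53.2% of all genes. Over 0.3 were 8 members, or 10.5%, beside 16.6% of all genes, and under -0.3 were 2 members, or 2.63%, beside 16.9% of all genes. The share of members past each threshold was thus below that of all genes. With a stricter signal minimum of 470.5, which 74 members passed, 10.8% of members were over 0.3 (14.1% of all genes), 2.7% under -0.3 (11.5%) and 73.0% above 0 (56.2%). The SD of the signal log ratios across members was 0.19.

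**Figure D1:**
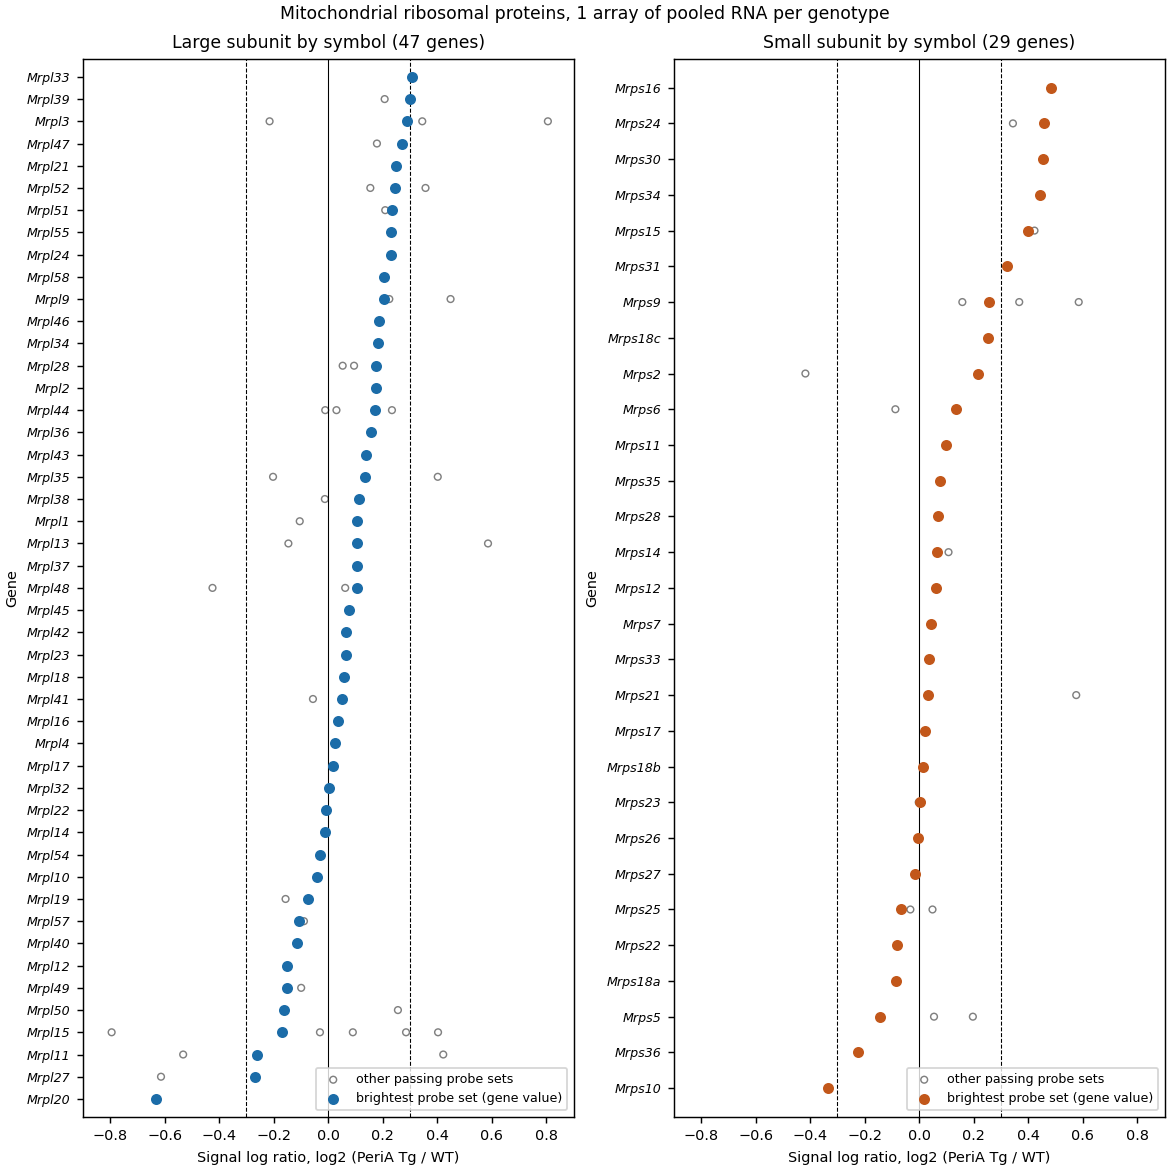
Signal log ratio, log2 (PeriA Tg/WT), of each mitochondrial ribosomal protein gene, large subunit on the left and small subunit on the right, each sorted by value. Filled points are the brightest probe set, open points the other passing probe sets of the gene, and dashed lines mark -0.3 and 0.3. The small subunit has 6 filled points over 0.3 and the large subunit 2, both of these at the line.

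Small subunit members made up 6 of the 8 genes over 0.3. *Mrps16*, the counterpart of a bacterial ribosomal protein and a gene mutated in human oxidative phosphorylation deficiency, had a signal of 2599.9 in Tg and 1859.9 in WT, a signal log ratio of 0.48. *Mrps24*, which lies in the head of the small subunit, had 3359.3 in Tg and 2447.7 in WT (0.46), and its other probe set had 0.34. *Mrps30* had 1421.7 in Tg and 1038.7 in WT (0.45). In the structure of the mammalian ribosome the protein of *Mrps30* sits in the large subunit despite its name.

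*Mrps34*, a protein found only in mitochondria and needed for a stable small subunit, had 4147.7 in Tg and 3051.5 in WT (0.44). A further probe set, annotated to *Mrps34* together with *Nme3*, had 869.9 in Tg and 562.9 in WT (0.63), and it was not used since it names both genes. *Mrps15*, the counterpart of a bacterial protein that binds ribosomal RNA early in assembly, had 2705.9 in Tg and 2051.0 in WT (0.40). Its second probe set had 0.42, so that both readings of this gene lay past the threshold. *Mrps31*, of the head of the small subunit, had 981.7 in Tg and 786.3 in WT (0.32).

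Of the other members of the small subunit, *Mrps9* (0.26) and *Mrps18c* (0.25) came next below the threshold. The 3 further passing probe sets of *Mrps9* were between 0.16 and 0.58. Both small subunit members with the brightest probe sets lay within the thresholds. *Mrps14*, a head protein, had 6955.5 in Tg and 6640.5 in WT (0.07), and *Mrps6* had 8753.2 in Tg and 7969.4 in WT (0.14), with -0.09 on its other probe set. In the RefSeq annotation *Slc5a3*, an inositol transporter gene, overlaps *Mrps6*. *Mrps27*, read from the dimmest probe set of all members, had 196.2 in Tg and 198.5 in WT (-0.02).

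At the lower end of the small subunit, *Mrps10*, another head protein, had 1240.4 in Tg and 1565.1 in WT, a signal log ratio of -0.34. It was the single small subunit member under -0.3, and its neighbours in the head, *Mrps24* and *Mrps31*, were over 0.3. *Mrps36* had 1520.2 in Tg and 1775.4 in WT (-0.22). The protein of *Mrps36* is now placed in the oxoglutarate dehydrogenase complex of the citric acid cycle and not in the ribosome. *Mrps5* had 292.5 in Tg and 322.8 in WT (-0.14), with 0.05 and 0.20 on its other passing probe sets, and *Mrps18a* had 1246.4 in Tg and 1322.3 in WT (-0.09). The protein of *Mrps18a*, like that of *Mrps30*, belongs to the large subunit by structure.

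In the large subunit, 2 of the 47 members were over 0.3 and both lay at the threshold. *Mrpl33*, the counterpart of a small bacterial protein, had 2069.5 in Tg and 1670.7 in WT (0.31). *Mrpl39*, found only in mitochondria, had 4499.2 in Tg and 3651.0 in WT (0.30), and its other probe set had 0.21. *Mrpl3*, a gene mutated in human mitochondrial cardiomyopathy, came next with 1486.8 in Tg and 1217.3 in WT (0.29), and *Mrpl47*, at the exit of the peptide tunnel, had 793.1 in Tg and 657.7 in WT (0.27). The other 3 probe sets of *Mrpl3*, in order of signal, had 0.34, 0.81 and -0.22. *Mrpl51*, with the brightest probe set of the large subunit, had 6623.3 in Tg and 5636.3 in WT (0.23), and *Mrpl1*, with the dimmest, had 479.4 in Tg and 445.4 in WT (0.11).

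*Mrpl20* stood below all other members. Its only passing probe set had 2430.9 in Tg and 3768.8 in WT, a signal log ratio of -0.63 and a ratio of 0.645. The bacterial counterpart of *Mrpl20* binds the large ribosomal RNA early in assembly. *Mrpl27*, whose bacterial counterpart reaches towards the site of peptide bond formation, had 4500.6 in Tg and 5416.1 in WT (-0.27), and its other passing probe set had -0.61. *Mrpl11* had 1919.1 in Tg and 2301.3 in WT (-0.26), and *Mrpl15* had 2275.2 in Tg and 2556.2 in WT (-0.17).

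**Figure D2:**
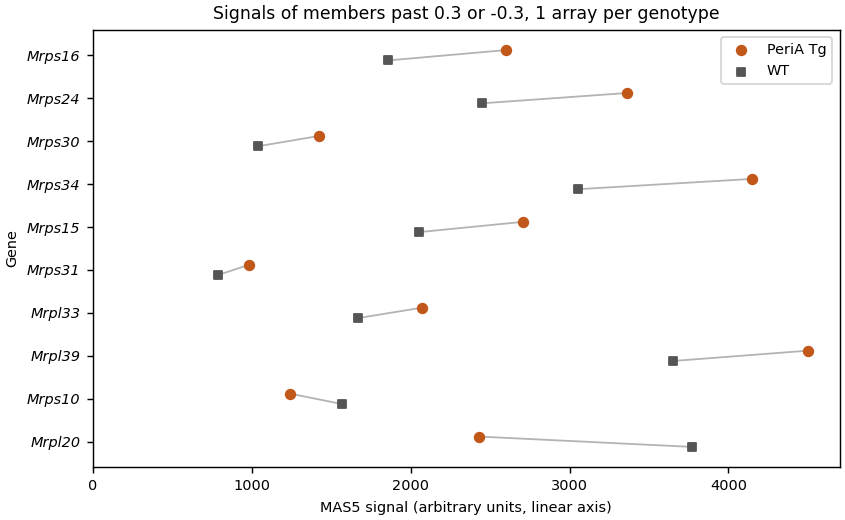
MAS5 signals (linear axis, arbitrary units) on the PeriA Tg array (circles, upper of each pair) and the WT array (squares) for the 10 members past 0.3 or -0.3, with 1 array per genotype and no error bars. The Tg signal is the higher one in 8 genes and the lower one in *Mrps10* and *Mrpl20*, and only pairs within a gene can be compared.

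Set against each other, the subunits had nearly the same centre. The share over 0.3 was higher in the small subunit, where it was near that of all genes. The median signal log ratio was 0.10 for the 47 large subunit members and 0.06 for the 29 small subunit members, a difference of 0.04 (large minus small), whereas the SD was 0.18 within the large and 0.21 within the small subunit. Above 0 were 33 large subunit members (70.2%) and 21 small subunit members (72.4%), beside 53.2% of all genes. Over 0.3 were 4.26% of the large and 20.7% of the small subunit members, beside 16.6% of all genes, and under -0.3 was 1 member of each. By structure, *Mrps30* and *Mrps18a* were counted with the large subunit and *Mrps36* was left out. The medians were then 0.10 for 49 large and 0.06 for 26 small subunit members. Over 0.3 were 3 (6.12%) and 5 (19.2%) members, beside 16.6% of all genes. The highest values were 0.45 in the large and 0.48 in the small subunit. Read from the second-brightest probe set, which 21 large and 10 small subunit members have above the filter, the order of the medians turned, with 0.05 for the large and 0.08 for the small subunit (-0.03).

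When instead each array was centred on its own median signal, which moved the median of all genes to 0.11, 9 large and 9 small subunit members were over 0.3, or 19.1% and 31.0%, beside 24.9% of all genes over 0.3 and 13.0% under -0.3. The share over 0.3 was higher in the small subunit under both scalings. No test of this difference was made, since genes of 1 pair of arrays are not replicates.

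**Figure D3:**
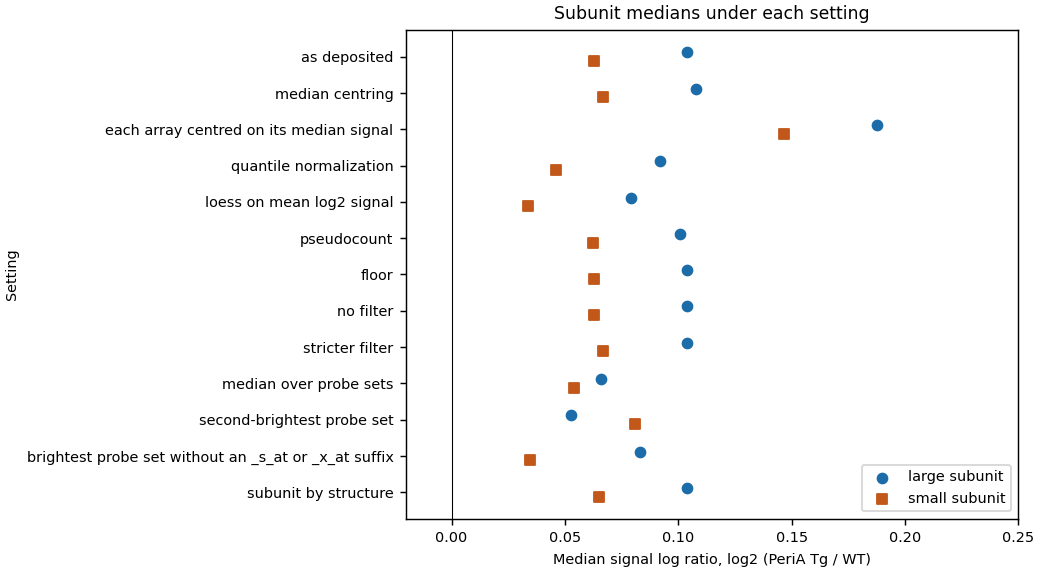
Median signal log ratio, log2 (PeriA Tg/WT), of large subunit members (circles) and small subunit members (squares), one row per setting of the processing. All medians lie above 0, between 0.03 and 0.19, and the large subunit is on the right in every row except that of the second-brightest probe set.

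Members were also grouped by place in the ribosome. Those at the base of the stalk, where translation factors bind, were below 0 on their brightest probe sets with the signals as deposited, although *Mrpl11* had 0.42 on its dimmest passing one. *Mrpl12*, of the stalk itself, had 2026.5 in Tg and 2249.8 in WT (-0.15), *Mrpl10*, which anchors it, had 1764.8 in Tg and 1814.4 in WT (-0.04), and *Mrpl54* had 1359.3 in Tg and 1388.3 in WT (-0.03). The median of these 3 was -0.04, and with *Mrpl11* (-0.26) the median of the 4 was -0.10. None of them was past -0.3, and *Mrpl10* and *Mrpl54* were at 0.04 and 0.05 when each array was centred on its median signal, which gave the 4 a median of -0.01. *Mrpl53*, a further stalk protein, has only a probe set shared with *Ccdc142*, with 3078.1 in Tg and 3222.4 in WT (-0.07).

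The 8 members of the central protuberance, the crest of the large subunit, had a median of 0.11, from -0.27 for *Mrpl27* to 0.23 for *Mrpl55*, and a median of -0.01 on the second-brightest probe sets of the 3 that have one. Among them, *Mrpl58*, which frees peptides from stalled ribosomes, had 2504.7 in Tg and 2171.9 in WT (0.21). The 6 members around the exit of the peptide tunnel had a median of 0.07, from -0.01 for *Mrpl22* to 0.27 for *Mrpl47*, the only one with a second passing probe set (0.18). *Mrpl45*, which holds the ribosome to the inner membrane, had 1483.1 in Tg and 1407.3 in WT (0.08). The 8 members of the head of the small subunit had a median of 0.07 and the widest span of these places, from -0.34 for *Mrps10* to 0.46 for *Mrps24*. On second-brightest probe sets, which 3 of them have, the median was 0.34.

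By origin, 47 members with a bacterial counterpart had a median of 0.07 and 28 found only in mitochondria had 0.08. Over 0.3 were 4 members of bacterial origin (8.51%) and 4 of mitochondrial origin (14.3%), beside 16.6% of all genes, and *Mrps10* and *Mrpl20*, under -0.3, both have bacterial counterparts. *Mrps36* was left out of this grouping. Proteins of the ribosome that carry other symbols had low values too: *Gadd45gip1* had 0.14, *Ptcd3* 0.11, *Chchd1* 0.09 and *Dap3* 0.00, all within the thresholds.

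How far a value rests on the choice of probe set can be read from the 31 members with at least 2 passing probe sets, 82 probe sets in all. Within a gene, the SD between probe sets was 0.26 when pooled over these members, beside 0.41 for the 5260 genes of the array with at least 2, and it covers only readings of the same RNA pools. It is larger than the SD of 0.19 across members and close to the threshold. The 2 are unlike measures, since the 0.26 includes dimmer passing probe sets and the 0.19 uses only the brightest of each gene. In 16 of the 31 members the passing probe sets lay on both sides of 0, and in 9 of these they were also over 0.3 apart: *Mrpl3*, *Mrpl11*, *Mrpl13*, *Mrpl15*, *Mrpl35*, *Mrpl48*, *Mrpl50*, *Mrps2* and *Mrps5*. In order of signal, *Mrpl13* had 0.11, 0.59 and -0.15, *Mrpl35* had 0.14, -0.20 and 0.40, and *Mrpl48* had 0.10, 0.06 and -0.42. *Mrpl50* had -0.16 and 0.26, and the 6 passing probe sets of *Mrpl15* lay between -0.79 and 0.40. *Mrps2* had 0.22 on its brightest probe set, and 200.2 in Tg and 267.4 in WT (-0.42) on the other. *Mrpl11* had -0.26, -0.53 and 0.42, so that no direction can be given for it.

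Of the 10 members past 0.3 or -0.3, only *Mrps15*, *Mrps24* and *Mrpl39* had a second passing probe set, and all readings of these 3 were above 0. The other 7 rest on 1 passing probe set each. *Mrpl30* has only probe sets shared with *Gm6238*, which had 0.23 on the brighter and -1.44 on the dimmer one, and it has no value of its own here.

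By median, genes that serve the ribosome had higher values than its proteins. Of 13 mitochondrial translation factors kept, 12 lay above 0 (92.3%, beside 53.2% of all genes), 6 over 0.3 (46.2%, beside 16.6%) and 0 under -0.3 (beside 16.9%), and their median was 0.22. *Mtif3*, an initiation factor, had 321.6 in Tg and 224.5 in WT (0.52), and *Mtrf1l*, a release factor, had 329.9 in Tg and 247.2 in WT (0.42). *Lrpprc*, which stabilises mitochondrial mRNA, had 865.2 in Tg and 656.4 in WT (0.40), and *Tufm*, the elongation factor that brings tRNA, had 997.0 in Tg and 768.8 in WT (0.37). The lowest were *Mtif2* at 0.00 and *Gfm2*, which acts in ribosome recycling, at -0.06.

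The 23 assembly factors kept had a median of 0.17, and 21 of them lay above 0 (91.3%, beside 53.2% of all genes), 6 over 0.3 (26.1%, beside 16.6%) and 0 under -0.3 (beside 16.9%). *Noa1*, a GTPase of ribosome assembly, had 631.5 in Tg and 386.3 in WT (0.71), and *Mrm3*, which methylates ribosomal RNA, had 482.3 in Tg and 300.6 in WT (0.68). The lowest were *Rcc1l*, with 231.9 in Tg and 232.4 in WT, and *Mterf4* (-0.04). On second-brightest probe sets the median of the assembly factors was -0.07.

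The respiratory chain and ATP synthase subunits, whose mitochondrial partners this ribosome makes, had a median of 0.21 over 76 genes, with 67 above 0, 15 over 0.3 and 3 under -0.3. These are 88.2%, 19.7% and 3.95% of the list, beside 53.2%, 16.6% and 16.9% of all genes, so that the share over 0.3 was near that of all genes. The highest were *Cox7a1* (1.66) and *Cox8b* (1.43), oxidase subunits of brown fat and muscle that are also among the brown adipocyte markers below. The lowest, *Ndufb1* (-0.40, with 274.8 in Tg and 363.7 in WT) and *Cox6a2* (-0.54, with 132.5 and 193.3), came from dim probe sets. The cytosolic ribosomal proteins had a median of 0.08 over 46 genes, with 38 above 0 (82.6%), 1 over 0.3 (2.17%) and 3 under -0.3 (6.52%). *Rpl12* (0.60) and *Rpsa* (0.21) were highest and *Rpl39* (-1.09) and *Rps27* (-0.64) lowest. *Rpl12* was read from a dim probe set, with 301.0 in Tg and 198.3 in WT. So were *Rpl39* (189.0 in Tg and 402.4 in WT) and *Rps27* (218.1 and 338.9), beside 22012.0 and 19002.3 for *Rpsa*. By median, the mitochondrial ribosomal proteins (0.07) thus stood beside the cytosolic ribosomal proteins and below the respiratory chain. Quantile normalization and loess on mean log2 signal gave 0.05 and 0.05 for the mitochondrial ribosomal proteins, 0.16 and 0.16 for the respiratory chain and 0.02 and 0.03 for the cytosolic ribosomal proteins. Whether these lists differ was not tested.

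**Figure D4:**
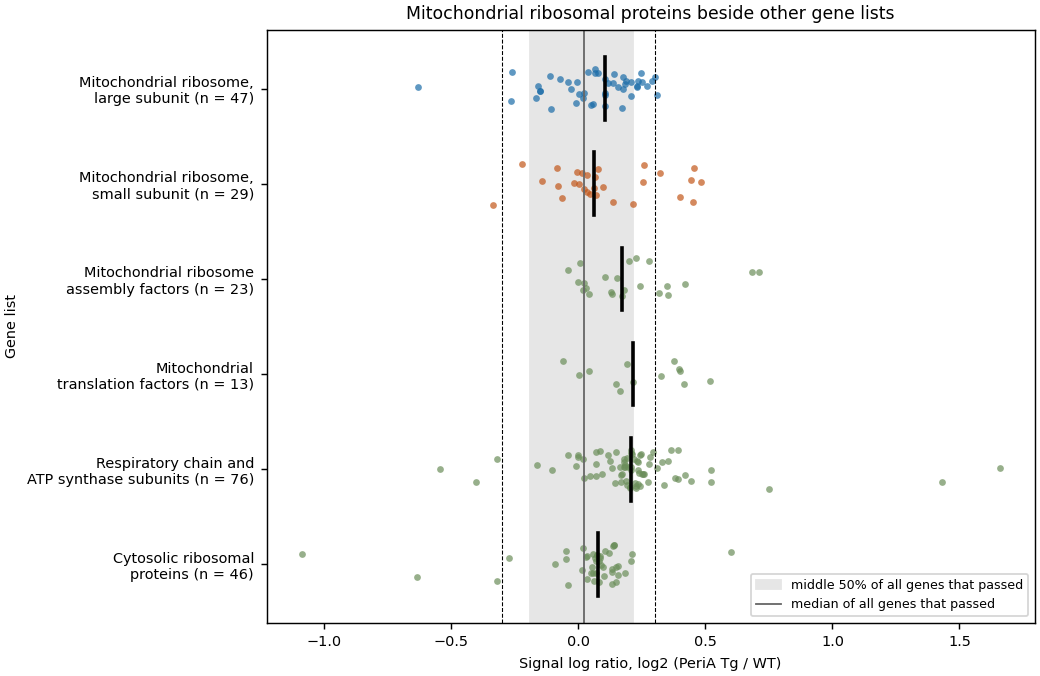
Signal log ratio, log2 (PeriA Tg/WT), of kept genes in 6 lists, one point per gene, with black bars at the medians, a grey band between the quartiles of all genes kept, dashed lines at -0.3 and 0.3, and the vertical position within a list without meaning. The medians of the subunits (0.10 and 0.06) lie left of those of the assembly factors (0.17), translation factors (0.22) and respiratory chain (0.21).

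Other differences between the arrays stand beside these values. The counts of markers past a threshold stand beside 16.6% of all genes over 0.3 and 16.9% under -0.3. Sums of signals are weighted towards the brightest probe sets. White adipocyte markers summed to 189141 in Tg and 185920 in WT, with 6 of 6 kept and 1 under -0.3, *Lep*, the leptin gene, at 13305.1 in Tg and 20770.4 in WT (-0.64). Brown adipocyte markers, 6 of 6 over 0.3 and 2 of them below 98.2 in WT, summed to 24354 in Tg and 4502 in WT. Macrophage markers, 2 of 6 under -0.3, summed to 32166 in Tg and 39370 in WT. *Lyz2* made up 19117.6 in Tg and 22570.5 in WT (-0.24) of these sums. Those under -0.3 were *Itgax* (-1.35) and *Cd68* (-1.13), and *Cd14* (0.18) was the only one above 0. Markers of fibroblasts and preadipocytes summed to 63512 in Tg and 59644 in WT, with *Pdgfra* (0.32) and *Col1a1* (-0.54) past the thresholds. Those of endothelium summed to 4120 in Tg and 4255 in WT and those of mesothelium to 5994 in Tg and 5491 in WT, with none past the thresholds in either list. Those of skeletal muscle, 3 of 6 kept, summed to 5557 in Tg and 6148 in WT, of which *Acta1* made up 5352.8 in Tg and 5450.6 in WT (-0.03), and both other kept markers, *Mylpf* (-0.72) and *Pvalb* (-2.98), were under -0.3. No marker was at 0. In bulk tissue, fewer cells of a type and less RNA per cell cannot be told apart. Poly-A controls are labelled together with the RNA. For them, the signal log ratio of the 5′ probe set minus that of the 3′ one had a median of -0.55 over 8 pairs. For 8 pairs of hybridisation controls the median was -0.005. In both kinds the same spiked transcripts were read by more than 1 pair, such as dap with -0.50 on both of its pairs. The pairs are therefore not separate transcripts. For 4 mouse transcripts with such pairs, the same difference of 5′ and 3′ values had a median of -0.21. It was -0.33 for *Gapdh*, -0.25 for beta-actin, -0.16 for pyruvate carboxylase and 0.31 for 18S ribosomal RNA. The part of these differences in the members' values was not tested. The transgene was not analysed here, since no probe set of *Plin1* is named in the annotation.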

How the data were processed

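Deposited values are MAS5 intensity signals that the authors obtained from GeneChip Operating Software. In them each array is scaled as a whole, to a mean of 500.0 without the lowest and highest 2% of signals. The table holds 45101 probe sets on each of 2 arrays, 1 per genotype. Present calls, by which the authors selected probe sets, were not used here, and the minimum of 98.2 takes their place. The log2 ratio was computed without further normalization, as in the methods, and 64 control probe sets were left out. Of the other 45037, 34945 had 1 symbol in the platform annotation, 932 several and 9160 were not listed. A gene takes the probe set with the highest mean log2 signal. A single array for each genotype allows no test, and this number limits the precision.

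Members, lists, place in the ribosome and settings were chosen with earlier results of these data known. Named genes were members past 0.3 or -0.3, the 4 highest and 4 lowest of each subunit, the 3 brightest and 3 dimmest members, those with passing probe sets on both sides of 0 and over 0.3 apart, *Mrps30*, *Mrps18a* and *Mrps36*, and the 2 highest and 2 lowest of each other list. *Mrps9*, *Mrps18c*, *Lrpprc*, *Tufm*, *Lyz2* and the remaining genes named by place in the ribosome were chosen after their values were seen. Alternatives were median centring, centring each array on its median signal (chosen after seeing the data), quantile normalization, loess (span 0.3), a pseudocount of 25.1, a floor of 56.9, no filter, a filter at 470.5, other probe sets of a gene, and subunits by structure. All 76 members matched RefSeq gene names, and each gene's outermost promoter window was searched. The steps were tested on simulated data, with the same true ratio for all probe sets of a gene and less noise than lies between real probe sets. This checks the computing and says nothing of how reliable the calls are. Computation used Python 3.11.15 with pandas 2.3.3, statsmodels 0.14.6 (loess), numpy 2.4.6, matplotlib 3.10.9 and scipy 1.17.1.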

Additional observations from a re-analysis of the deposited data

How the results depend on the processing

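The medians of all members, of the large and of the small subunit stayed above 0 under every alternative run and moved by less than 0.1, between 0.05 and 0.15 for all members. The difference of the subunit medians (large minus small) turned to -0.028 on second-brightest probe sets, where only 31 members have a value, and 19 of these were above 0, against 54 of 76 as reported. When each array was centred on its median signal, a setting chosen after seeing the data, 18 members were over 0.3 and 1 was under -0.3, against 8 and 2, which follows from the shift of all values by the same amount; *Mrps10* was then at -0.25. Of all genes, 24.9% were then over 0.3 and 13.0% under -0.3, against 16.6% and 16.9% with the signals as deposited. *Mrpl39* was below the threshold with loess (0.28), quantile normalization (0.298), the pseudocount (0.2995), the median over probe sets (0.25) and the second-brightest probe set (0.21). *Mrpl33* was below it with loess (0.297) and quantile normalization (0.292). With each of the last 2 settings 6 members, all of the small subunit by symbol, were over 0.3. These were 20.7% of the small subunit, beside 17.4% of all genes with loess and 18.1% with quantile normalization. *Mrps30*, of the large subunit by structure, was among them. The other members past the threshold stayed past it in the remaining alternatives that gave them a value. The names of both *Mrps24* probe sets end in _s_at, so this gene had no value when _s_at and _x_at probe sets were left out. No paired analysis was possible because each genotype has 1 array.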
